A study of Homo sapiens with 6 samples.

Results

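The genes described here are 10 genes of the melanosome, the organelle in which melanin is made and stored: TYR, TYRP1, DCT, PMEL, MLANA, OCA2, SLC45A2, SLC24A5, RAB27A and RAB38. They were taken as a named list out of 19974 protein-coding genes on chromosomes 1 to 22 and X. Each was described by the ATAC-seq regions that overlap its RefSeq interval or lie within 50 kb of it, which came to 117 of 151534 regions in all. ATAC-seq cuts accessible DNA in nuclei with the transposase Tn5 and reads where the cuts fall. All samples were wild-type hTERT-RPE1 cells, a human retinal pigment epithelial line immortalised with telomerase, grown without a stated treatment. They formed 6 libraries, 3 in a set called R1 and 3 in a set called R2, which no label explains. Each set was deposited as 1 merged peak list, so no spread between replicates exists, no test was run, and all values are descriptions of these 2 lists from 1 cell line.

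Pigment epithelium and melanocytes both make melanin. Tyrosinase and its relatives TYRP1 and DCT carry out the chemistry, PMEL builds the fibrils on which pigment is laid down, membrane transporters set the ionic conditions inside the organelle, and RAB GTPases bring cargo to melanosomes or hold them at the cell edge. In pigment cells the factor MITF binds E-box sequences, among them a longer form called the M-box, in front of several of these genes. Accessible DNA at a start site is not the same as transcription, and no RNA was measured here.

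The values of a region are its fold enrichment over local background, the authors' value for 1 peak of 1 list, and the place of that fold among all peaks of the same list, as a percentile. On these chromosomes R1 had 142865 peaks with a median fold of 5.04, and R2 had 134351 with a median fold of 5.12. A depth over the summit was recovered from the deposited values, and its unit, which is not given, is called fragments here. The median peak had 72 fragments in each list, and the lowest background was 7.93 fragments in R1 and 7.79 in R2. The smallest regions named below, with 18 to 30 fragments, therefore rest on few fragments. Coordinates are on hg38. Of markers of pigment epithelium, 10 of 12 had a region of each list within 1000 bp of a start site, against 72.9% of all protein-coding genes, and RPE65 and TTR had none. Here and in the counts of genes below, genes without a start in the table used were placed by either end of their interval. Among these markers that held for BEST1, TTR, SERPINF1, CDH3 and KRT18. The counts were 3 of 5 for melanocyte markers, with none for PAX3, 1 of 4 for photoreceptor markers, 4 of 5 for mesenchymal markers and 2 of 4 for blood markers. On so few genes these counts do not set the line apart from the background. Some of the regions were weak, as at BEST1, with a fold of 2.55 in R1 and of 2.30 in R2, and at CDH3 and NRL the strongest regions of R1 and R2 lay at different places.

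The sequences of 7 start windows show the motifs and the base composition that the results on the starts refer to. RefSeq windows from 250 bases before to 50 bases after a start (GRCh38.p14) were at hand for 7 of the 10 genes, with 12 windows in all. The windows below run 5′ to 3′ on the gene's own strand. Capitals mark matches on either strand to the E-boxes CATGTG and CACGTG, to TCATGTG, the core of the M-box, to the TATA box TATAAA and to the GC box GGGCGG. The first 4 windows hold TCATGTG, and the last 3 do not.
TYR, chr11:89177625-89177924, plus strand: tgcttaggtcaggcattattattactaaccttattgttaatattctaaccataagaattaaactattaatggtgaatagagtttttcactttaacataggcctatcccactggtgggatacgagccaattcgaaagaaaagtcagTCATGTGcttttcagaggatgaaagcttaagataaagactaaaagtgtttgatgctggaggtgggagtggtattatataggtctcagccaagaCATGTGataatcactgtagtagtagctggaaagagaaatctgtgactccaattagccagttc
TYRP1, chr9:12693135-12693434, plus strand: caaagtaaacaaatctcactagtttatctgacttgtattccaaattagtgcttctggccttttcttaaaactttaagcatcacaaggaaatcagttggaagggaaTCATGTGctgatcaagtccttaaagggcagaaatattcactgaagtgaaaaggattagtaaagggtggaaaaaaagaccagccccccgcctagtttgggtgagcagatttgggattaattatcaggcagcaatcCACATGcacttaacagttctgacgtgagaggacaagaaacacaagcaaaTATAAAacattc
DCT inner start, chr13:94479633-94479932, minus strand: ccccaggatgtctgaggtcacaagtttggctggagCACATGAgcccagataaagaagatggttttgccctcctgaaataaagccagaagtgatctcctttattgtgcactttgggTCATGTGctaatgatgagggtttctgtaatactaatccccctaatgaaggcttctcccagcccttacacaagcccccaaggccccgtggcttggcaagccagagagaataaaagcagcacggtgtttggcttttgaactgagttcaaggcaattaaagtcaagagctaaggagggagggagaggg
SLC24A5, chr15:48120740-48121039, plus strand: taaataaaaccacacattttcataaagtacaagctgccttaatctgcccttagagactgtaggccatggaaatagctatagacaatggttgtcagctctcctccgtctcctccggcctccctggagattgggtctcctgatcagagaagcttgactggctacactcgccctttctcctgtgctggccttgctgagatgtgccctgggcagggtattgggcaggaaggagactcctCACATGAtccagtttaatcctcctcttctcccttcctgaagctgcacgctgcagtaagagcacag
DCT outer start, chr13:94549357-94549656, minus strand: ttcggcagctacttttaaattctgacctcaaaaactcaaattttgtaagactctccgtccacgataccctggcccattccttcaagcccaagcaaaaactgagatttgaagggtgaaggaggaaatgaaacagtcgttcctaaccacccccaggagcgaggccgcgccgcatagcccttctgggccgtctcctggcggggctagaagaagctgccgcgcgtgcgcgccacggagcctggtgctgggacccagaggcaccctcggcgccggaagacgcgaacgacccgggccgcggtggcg
OCA2, chr15:28099266-28099565, minus strand: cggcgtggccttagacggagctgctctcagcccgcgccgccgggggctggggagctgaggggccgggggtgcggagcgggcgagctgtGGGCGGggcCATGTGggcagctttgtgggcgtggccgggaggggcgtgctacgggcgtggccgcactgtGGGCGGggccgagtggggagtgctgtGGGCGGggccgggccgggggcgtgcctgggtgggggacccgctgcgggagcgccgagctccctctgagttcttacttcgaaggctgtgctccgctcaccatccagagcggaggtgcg
RAB27A outer start, chr15:55319074-55319373, minus strand: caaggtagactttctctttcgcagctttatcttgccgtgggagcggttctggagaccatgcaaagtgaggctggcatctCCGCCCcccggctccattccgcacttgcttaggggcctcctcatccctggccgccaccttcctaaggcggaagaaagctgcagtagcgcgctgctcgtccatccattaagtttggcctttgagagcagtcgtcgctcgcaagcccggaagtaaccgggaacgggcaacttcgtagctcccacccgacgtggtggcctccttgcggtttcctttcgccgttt

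TCATGTG began 105 bases before the start of TYR and 145 bases before that of TYRP1. In front of the inner start of DCT it occurred at 135 bases and, on the other strand, at 215 bases. In SLC24A5 it lay on the other strand, beginning 15 bases before the start. TYR and TYRP1 each held a second CATGTG closer to the start, beginning at 12 and 11 bases. Thus 4 of the 12 windows, in 4 of the 7 genes, held TCATGTG, whereas 2.31% of 22132 start windows of all protein-coding genes did. Since the M-box was already known in front of several of these genes, this difference is not a result of these data. CATGTG, which lies within TCATGTG, was found in 5 of the 12 windows, 1 in each of 5 genes, and in 8.93% of all windows, and CACGTG in none of the 12 and in 8.34% of all windows. The GC box was found in 3 of the 12, that of OCA2, where it occurs 3 times, and 2 of RAB27A, against 56.3% of all windows. A match of letters is a description of the window and not a bound site.

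The enzymes of melanin synthesis had no region at their starts. TYR, TYRP1 and DCT lacked a region within 1000 bp of any start in R1 and in R2, and so did MLANA. The other 6 genes had one in each list. Over all protein-coding genes the percentage with such a region was 72.9%, so 6 of 10 is a share below the background of these lists, on a list too short to read more from it. PMEL, SLC45A2 and RAB38 have no start in the table used here and were placed by either end of their interval, the rule under which 67.6% of genes without a start in the table had a region. With only regions of at least the median fold of their list, the count was 4 (PMEL, SLC45A2, RAB27A and RAB38), against 56.8% of all protein-coding genes. Counting in their place regions joined from overlapping R1 and R2 peaks, with any part within 1000 bp, it was 5, since SLC24A5 had none, against 73.0%. Without regions at the end of another protein-coding gene, it was 4 (OCA2, SLC45A2, SLC24A5 and RAB38), against 55.6%.

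**Figure D1:**
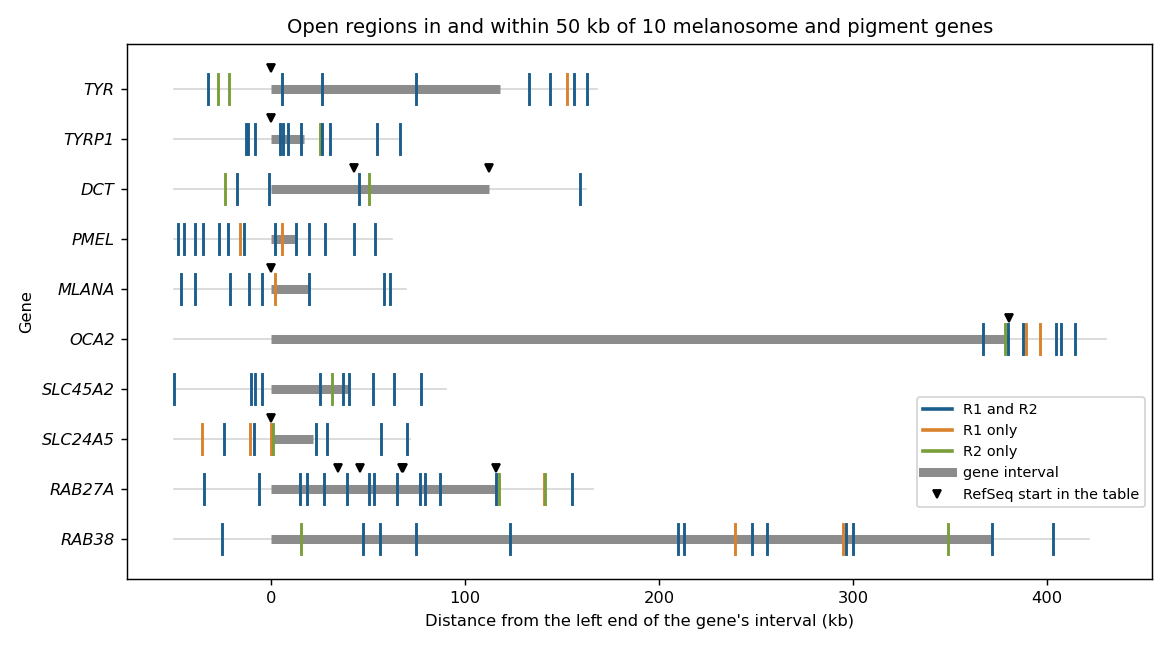
Open regions (vertical ticks) along each of the 10 genes and 50 kb on each side. The horizontal axis is the distance in kb from the left end of the gene's interval (thick grey bar), colours give the list or lists in which a region was found, and triangles mark RefSeq starts. OCA2 has a stretch of 366840 bp without a region, whereas RAB27A and RAB38 each have 11 regions found in both lists inside the gene.

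TYR encodes tyrosinase, the enzyme that starts melanin synthesis, and lies on chromosome 11 (89177875 to 89295759). The region nearest its start lay inside the gene, 4899 bp from the start, at 89182774 to 89184583. Its fold was 9.08 in R1 (percentile 83.3, 203 fragments) and 8.49 in R2 (percentile 80.0, 180 fragments). This is a strong and wide region in both lists, although the promoter itself had no peak. The other 2 regions inside the gene that both lists held were weak, with folds of 2.69 and 3.36 in R1 and 2.96 and 3.07 in R2. The strongest region of the window, at 89340118 to 89341213 with a fold of 11.7 in R1 and of 11.1 in R2, lay inside the neighbouring gene NOX4, which encodes an NADPH oxidase.

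TYRP1, whose product acts beside tyrosinase, is a short gene of 16901 bp on chromosome 9 (12693385 to 12710285). Both lists held 4 regions inside it, or 23.7 per 100 kb of gene, which placed it at percentile 98.4 of the 14316 protein-coding genes of at least 10 kb. The median of those genes was 6.92 per 100 kb. The region nearest the start, 4375 bp away at 12697760 to 12698775, was weak, with a fold of 2.63 in R1 and of 3.83 in R2. Another weak region inside the gene, at 12699535 to 12699807, reached only 2.88 in R1 (26 fragments) and 3.10 in R2 (27 fragments). It adjoined an end of LURAP1L-AS1, which is not a protein-coding gene. The density of 23.7 per 100 kb counts both of these weak regions, in a short gene. A region near the far end of the gene, at 12708326 to 12709125, had folds of 9.52 in R1 and 8.64 in R2. The region of best rank lay 12175 bp from the gene, at 12680139 to 12681210, with a fold of 10.3 in R1 and of 9.58 in R2. The window as a whole held 11 shared regions, at percentile 59.0 of protein-coding genes by count and 71.6 per 100 kb, so the high density was that of the gene body.

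DCT, the gene of dopachrome tautomerase, had the fewest regions of the 10, with 4 in both lists over 112596 bp of gene (chromosome 13, 94436811 to 94549406) and its flanks. Its 2 starts in the table lie far apart. A region 2255 bp from the inner start, at 94481937 to 94482413, had folds of 5.49 in R1 and 3.98 in R2, from 48 and 34 fragments. From the outer start inward, 61962 bp held no region in either list, and the nearest shared region to that start lay 45798 bp away, at the end of TGDS. That region, at 94595204 to 94596661, was the strongest of the window, with a fold of 10.3 in R1 and of 9.96 in R2. A region at 94435536 to 94436026, with a fold of 6.49 in R1 and of 5.57 in R2, lay 785 bp past the downstream end of DCT.

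PMEL, which encodes the fibril-forming matrix protein, and MLANA, which encodes a small membrane protein of early melanosomes, are the structural genes of the list. PMEL lies on chromosome 12 (55954105 to 55966709) among close neighbours. The region at its right end, at 55966113 to 55967698, had folds of 10.9 in R1 and 10.5 in R2. The same region lies at the end of CDK2, a cell cycle kinase gene. Which of the 2 genes it belongs to cannot be told apart from a peak list. Of the 13 regions that both lists held around PMEL, 5 lay at the end of another protein-coding gene and 12 overlapped the interval of one. The exception, at 55955284 to 55956903, lay inside PMEL 1179 bp from its left end, with a fold of 6.25 in R1 and of 5.91 in R2. A region in DGKA, a diacylglycerol kinase gene, at 55939801 to 55940717, was about as strong as the one at CDK2, with a fold of 10.3 in R1 and of 11.1 in R2.

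MLANA lies on chromosome 9 (5890889 to 5910606) within the interval of the larger gene BRD10. The nearest signal to its start was a region of R1 alone, 1877 bp away, with a fold of 2.13 and 18 fragments, which is close to the weakest that the list holds. The nearest region of both lists, at 5885888 to 5886861, lay 4028 bp from the start and was among the strongest of all 117, with folds of 12.01 in R1 (percentile 96.3) and 11.8 in R2 (percentile 96.4). At the downstream end of MLANA a region at 5909896 to 5910888 had folds of 4.59 in R1 and 5.80 in R2. All but 1 of the 8 shared regions around MLANA overlapped BRD10 or ERMP1 and cannot be assigned to 1 gene.

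The transporter genes all had a region of each list at the start or an end, of very different strength. OCA2, a chloride transporter gene mutated in a form of albinism, covers 380308 bp of chromosome 15 (27719008 to 28099315). The region at its start, at 28098380 to 28099677, had folds of 4.38 in R1 and 4.23 in R2, below the median of each list. Both lists held 1 further region inside the gene, 12771 bp from the start at 28085848 to 28086544, with a fold of 9.18 in R1 and of 7.96 in R2. A region of R2 alone, at 28097023 to 28097386, was weak, with a fold of 2.87 and 43 fragments. The 366840 bp from the downstream end of the gene to the first of these regions held none in either list. At 0.53 regions per 100 kb OCA2 stood at percentile 9.6 of genes of at least 10 kb. Of the 6 shared regions of its window, 3 lay within the neighbouring gene HERC2, with folds between 4.82 and 8.58 in R1 and between 4.59 and 7.23 in R2.

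SLC45A2, a melanosomal transporter gene, lies on chromosome 5 (33944623 to 33984693). The region at its right end, at 33984266 to 33985158, had folds of 6.47 in R1 and 6.38 in R2. It lay at the end of no other protein-coding gene. A stronger region inside the gene, at 33969609 to 33970484, had folds of 12.2 in R1 and 9.85 in R2. It also adjoined an end of the pseudogene PSMC6P3. The strongest region of the window, at 33997185 to 33997827 with a fold of 12.5 in R1 and of 11.2 in R2, lay within AMACR. SLC45A2 was near the middle of all genes, with 7.14 shared regions per 100 kb of window against 6.76 for the median protein-coding gene.

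SLC24A5 encodes a sodium, calcium and potassium exchanger and lies on chromosome 15 (48120990 to 48142672). It counts as having a region of each list near its start only by 2 different and weak regions. R1 had one across the start, at 48120814 to 48121143, with a fold of 2.13 and 18 fragments, and R2 had one 811 bp away, at 48121801 to 48122128, with a fold of 2.50 and 21 fragments. They do not overlap each other, and no region inside the gene was held by both lists. The strong regions of the window lay beyond the downstream end and within MYEF2. One at 48143558 to 48145371 had folds of 12.02 in R1 and 9.28 in R2. The other at 48149721 to 48150602 had folds of 12.3 in R1 and 9.75 in R2.

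The trafficking GTPase genes held the most shared regions inside the gene. RAB27A, whose product tethers melanosomes and other secretory organelles to the actin cytoskeleton through effector proteins, lies on chromosome 15 (55202966 to 55319123). Its outer start was covered by the region of best rank of the whole group, at 55318562 to 55319670, with a fold of 12.6 in R1 (percentile 97.6, 365 fragments) and 12.05 in R2 (percentile 97.1, 334 fragments). PIGBOS1 and PIGB also have an end there. Apart from it, both lists held 10 regions inside RAB27A, with folds between 3.54 and 10.6 in R1 and between 3.55 and 9.69 in R2, and none of the 10 lay at the end of another protein-coding gene. The 4 inner starts in the table had no region within 1000 bp. Another region above percentile 90 in both lists, at 55196134 to 55197736, lay at the end of RSL24D1, with a fold of 10.6 in R1 and of 10.1 in R2.

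RAB38, whose product helps carry tyrosinase and TYRP1 to the melanosome, spans 371729 bp of chromosome 11 (87803715 to 88175443) in this annotation. The region at its right end, at 88174459 to 88175998, had folds of 8.95 in R1 and 8.62 in R2. No other protein-coding gene ends there, though the microRNA gene MIR3166 does. Inside the gene 2 regions stood above percentile 90 in both lists. One at 87850800 to 87852033 had folds of 12.1 in R1 and 11.3 in R2. The other at 88016083 to 88017029 had folds of 11.7 in R1 and 11.6 in R2. None of the 13 shared regions of RAB38 overlapped another protein-coding gene. The 11 of them inside the gene came to 2.96 per 100 kb, at percentile 19.7 of genes of at least 10 kb.

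**Figure D2:**
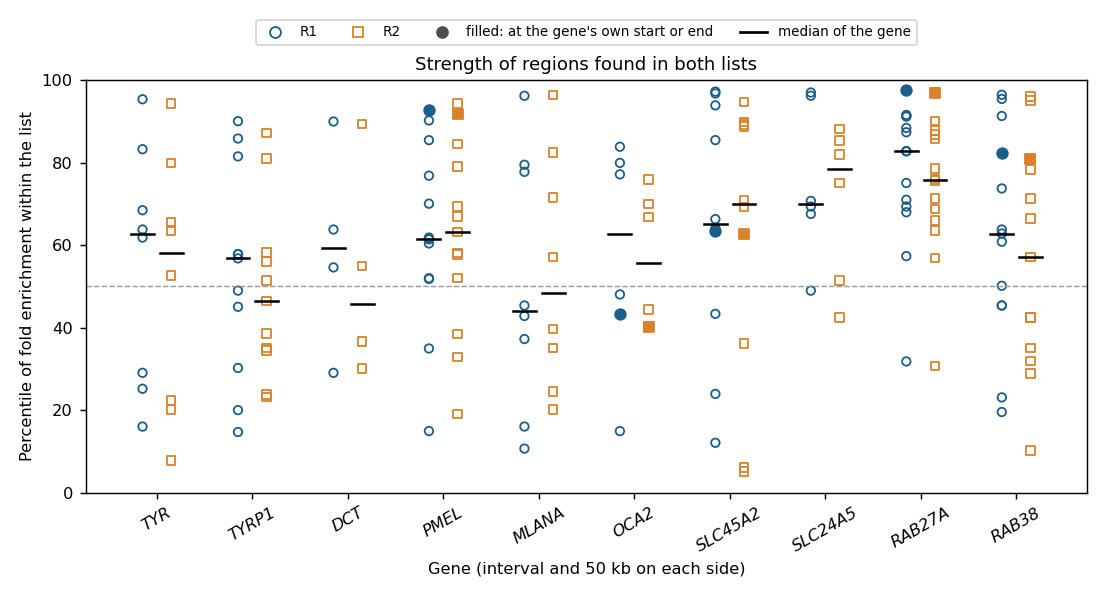
Percentile of fold enrichment within a list (circles for R1, squares for R2) for each region found in both lists, by gene, on the vertical axis. Black lines are medians per gene, and the dashed line is the middle of a list. Filled symbols mark regions within 1000 bp of a start in the table. For PMEL, SLC45A2 and RAB38, which have no start there, they mark regions within 1000 bp of either end. The region at the start of RAB27A reaches 97.6 in R1 and 97.1 in R2, while that of OCA2 lies at 43.2 and 40.1.

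Across the group, 93 of the 117 regions (79.5%) were held by both lists, against 80.8% of all regions. The other 24, 12 in each list alone, were weak, with folds from 1.80 to 3.58, and narrow, with a median width of 289.5 bp against 798 bp for the shared ones. All 10 genes had at least 1 shared region in their window, as did 94.2% of protein-coding genes. The shared regions had a median percentile of 63.8 in R1 and 63.5 in R2, against 57.0 and 54.4 over all shared regions. Above percentile 90 in both lists stood 9 of the 93 (9.68%), against 9.06% of all shared regions. The shares held by both lists and above percentile 90 thus lay near those of all regions. Of the 93, 38 lay inside a member gene and 55 in the flanks, 13 lay at the end of another protein-coding gene and 36 overlapped the interval of one.

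By role, the GTPase genes held 22 of the 38 shared regions inside genes, the enzyme genes 8, the transporter genes 5 and the structural genes 3. Per 100 kb of gene the members of a role differed widely. RAB27A had 9.47 and RAB38 2.96, while TYRP1 had 23.67 beside 2.54 for TYR and 0.89 for DCT. SLC45A2 had 7.49, OCA2 0.53 and SLC24A5 none, and PMEL had 15.87 and MLANA 5.07. A region of each list inside the gene and more than 1000 bp from both ends was found in 8 of the 10 genes, all but MLANA and SLC24A5, against 81.6% of genes of at least 10 kb, the class to which all 10 belong. The number of shared regions per window ran from 4 at DCT to 14 at RAB27A, where the median protein-coding gene had 10.

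The start windows of the 3 enzyme genes were poor in the dinucleotide CpG, apart from the outer start of DCT. TYR, TYRP1 and the inner start of DCT each had 2 CpG in 300 bases, SLC24A5 had 4 and MLANA 6, while RAB27A had 23 at its outer start and OCA2 32. The middle of all windows was 21. Among protein-coding genes the share of windows with a region of each list within 1000 bp was 21.9% at 0 to 2 CpG, 34.2% at 3 to 5, 53.4% at 6 to 10, 71.2% at 11 to 15, 84.5% at 16 to 20, 90.7% at 21 to 30 and 92.1% above 30. The windows of TYR, TYRP1 and the inner start of DCT were thus in the class where most genes lack such a region. The outer start of DCT was not. It had 26 CpG, a number at which 90.7% of windows had a region, and it had none in either list. Conversely OCA2 and the outer start of RAB27A were in classes where nearly all windows had one.

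**Figure D3:**
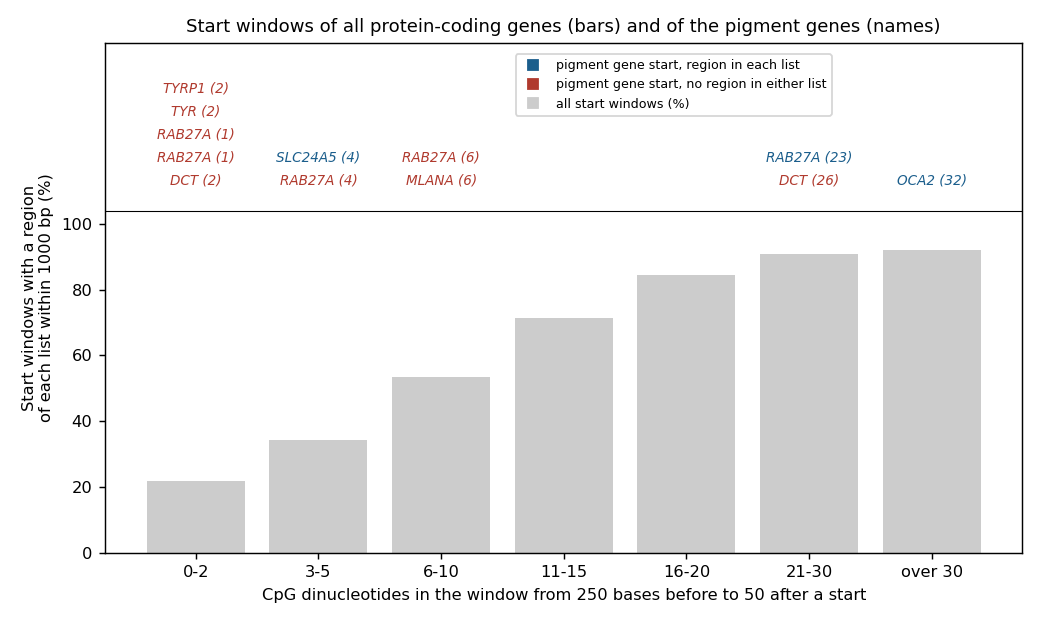
Share of start windows of protein-coding genes with a region of each list within 1000 bp (bars, vertical axis in %) by the number of CpG dinucleotides in the window (horizontal axis). Names above the bars are the 12 start windows of the pigment genes with their CpG number in parentheses, in blue where each list had a region and in red where neither had. The outer start of DCT, with 26 CpG, is the red name over the bar of 90.7%.

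Over all protein-coding genes 51.8% of windows with TCATGTG had a region, against 72.3% of those without it. At few CpG the order was the other way, by small differences on few windows with TCATGTG, and no test was run. At 0 to 2 CpG the share was 25.6% of 129 windows with TCATGTG and 21.6% of 2158 without it, and at 3 to 5 CpG it was 39.3% of 117 and 33.9% of 2323. At 6 or more CpG it was 69.9% of 266 and 83.8% of 17139. The lack of a region at TYR, TYRP1 and DCT thus goes with few CpG in the window at 3 of their 4 starts, and the part of base composition in it was not tested.

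The wider machinery of the melanosome was counted on a list of 48 other genes. Of these, 42 (87.5%) had a region of each list within 1000 bp of a start, against the 72.9% of all protein-coding genes, and 5 had none. With only regions of at least the median fold of their list the count was 30, against 56.8%. SLC7A11, BACE2, HPS1, AP3B1, AP3D1, BLOC1S4, VPS33A, MYO7A, SYTL2, SOX10 and EDN3 have no start in the table used here. They were placed by either end of their interval, so a region at their downstream end counts. Under that rule 67.6% of genes without a start in the table had a region. The count was 18 of 18 for organelle biogenesis, the HPS, BLOC and AP-3 genes and partners, whose products help build lysosome-related organelles. For HPS1, and for PAX6 among the transcription factors, the strongest regions of R1 and R2 lay at different places. SNAPIN, a BLOC-1 subunit gene, had folds of 12.3 in R1 and 13.1 in R2. HPS5 had 12.3 and 10.95 and HPS4 11.2 and 11.1, in regions shared with an end of GTF2H1 and of SRRD. Among other melanosome proteins the count was 8 of 9. It included SLC7A11, the cystine transporter gene, with a fold of 12.1 in R1 and of 10.7 in R2. BACE2, a protease that cleaves PMEL, had 11.5 and 11.2. SLC7A11 and BACE2 were placed by either end, so these regions may lie at the downstream end and not at a start. ATP7A, a copper pump that supplies tyrosinase, had 10.2 and 8.75, while SLC24A4 had none.

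Genes of melanosome transport had such a region in 5 of 6 cases. SYTL2, an effector of RAB27A, had folds of 11.3 in R1 and 11.7 in R2 in a region shared with an end of CCDC83. MYO5A, the motor gene for melanosomes in melanocytes, had 7.52 in R1 and 7.97 in R2, and MYO7A, the motor gene in pigment epithelium, had 7.60 and 7.18. The region of MYO7A is shared with an end of CAPN5. MYRIP, which links RAB27A to myosin VIIa in pigment epithelium, had none in either list. Transcription factors and receptors of pigment cells had one in 11 of 15 cases (73.3%), near the 72.9% of all protein-coding genes. Their median fold, 5.15 in R1 and 4.83 in R2, was near the median of all peaks, 5.04 and 5.12. Regions at starts mostly lay above that middle, since 56.8% of all protein-coding genes had one of at least the median fold. Over the 48 genes the median fold was 7.71 in R1 and 8.1 in R2. Best by rank in this list were MITF, EDNRB and KITLG. MITF had folds of 7.79 in R1 and 8.04 in R2, EDNRB, an endothelin receptor gene, 9.41 and 9.42, and KITLG, the gene of the KIT ligand, 8.32 and 7.41. Among the weakest were OTX2, with 3.08 and 2.59, and MC1R, with 3.07 and 3.03. The region of MC1R is shared with an end of LOC124903759. At an end of SOX10, a regulator of melanocytes, R1 alone had a region, with a fold of 2.77. SOX10 was placed by either end, so that end need not be its start. PAX3, ASIP and EDN3 had none in either list.

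**Figure D4:**
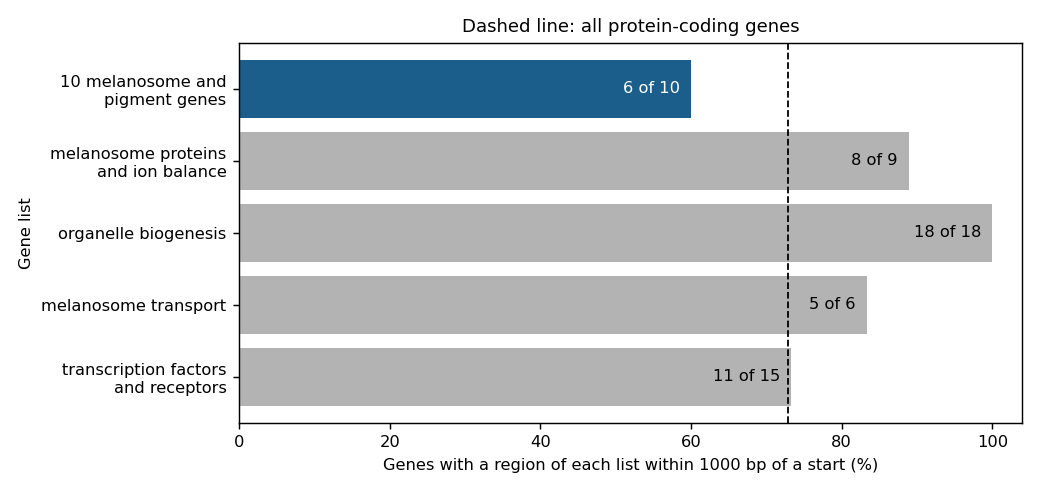
Genes with a region of each list within 1000 bp of a start (horizontal axis, %) for the 10 melanosome and pigment genes and for 4 lists of other melanosome genes, with counts written in the bars. Genes without a start in the table were placed by either end of their interval. The dashed line is the value for all protein-coding genes (72.9%). The 10 genes reach 6 of 10 and the organelle biogenesis genes 18 of 18.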

How the data were processed

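ATAC-seq libraries of hTERT-RPE1 cells were deposited as 1 merged peak list per set. The genome build was hg38, per the submitters' processing notes. For the aligner, the peak caller, its settings and any shift of Tn5 cuts, the entry is "not given in the sources used here". By the order and values of their columns, the deposited lists hold a fold enrichment over background (a ratio), the −log10 of a p-value and of a q-value, a display score made from the q-value, and a summit offset in bp. Strengths were ranked within a list only.

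R1 and R2 peaks overlapping by at least 1 bp were joined into shared regions. Gene intervals and start windows came from RefSeq tables of GRCh38.p14, and genes without a start in the table (4162, of which 3 among the 10) were placed by either end. Fragments over a summit were recovered on the assumption that the fold is (pileup + 1) / (background + 1) and that the p-value is a Poisson tail. This relation is inferred. It returned the deposited value to within 0.001 (−log10 p) in 100% of peaks. On simulated data the interval step made 0 errors in 2900 cases and the pileup step recovered 100% of 18926 peaks. The simulated peaks were drawn from the same relation, so they check the recovery and not the relation or its unit. No interval per region was computed.

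All 10 genes are named. Other genes were named by rule: up to 3 per list with the best mean percentile, the first 3 alphabetically with a region in neither list, and each with a region in 1 list. For each of the 10 genes the regions of best rank, nearest the start and above percentile 90 in both lists are named, and others were chosen after their values were seen. The genes and lists were chosen with earlier results of these data known. The tools were Python 3.11.15 with numpy 2.4.6, pandas 2.3.3 and scipy 1.17.1, and matplotlib 3.10.9 for figures.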

Additional observations from a re-analysis of the deposited data

How the results depend on the processing

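The number of the 10 genes with a region of each list at the start ranged from 4 to 8 over 14 alternatives. Besides the counts of 4 and 5 given with that result, SLC24A5 was lost, leaving 5, at a −log10 q of at least 5 or 10, within 500 bp, in the window of 300 bp, and with reciprocal overlap. The alternatives of regions overlapping each other and of regions away from other gene ends were chosen after seeing the data. Counting either end of a gene gave 8, by the downstream ends of DCT and MLANA, and no share over all genes was counted for that rule. TYR and TYRP1 were without such a region under each of the 14. The number of genes with a region inside ranged from 7 to 10 over 8 alternatives, for which no share over all genes was counted. The count over the 48 other genes ranged from 30 to 43 over 14. The 30 came with regions of at least the median fold, against 56.8% of all protein-coding genes. Without regions at the end of another protein-coding gene the count was 33, against 55.6%. The 93 shared regions became 60 with the median fold as a minimum, 51 with flanks of 10 kb, 60 with 20 kb and 140 with 100 kb, which follows from the regions or the stretch kept. No paired analysis was possible because each set is 1 merged list, and for the same reason no library could be left out.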
